A study of Homo sapiens with 2 samples.

Results

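The insulin and insulin-like growth factor (IGF) axis was taken as 10 genes chosen by symbol: the receptors INSR, IGF1R and IGF2R, the ligand IGF2, the receptor substrates IRS1 and IRS2, and the secreted binding proteins IGFBP1, IGFBP2, IGFBP3 and IGFBP6. They are 10 of 33694 genes named in the deposited tables. The samples are 2 libraries of poly-A RNA from LM3 cells, a line of human hepatocellular carcinoma: 1 of cells whose genotype is labelled NCOA5 knockout and 1 of wild-type cells. NCOA5 is a coregulator of nuclear receptors. Both are given as liver in source, and the labels do not say whether the knockout cells are 1 clone. The tables give an FPKM for each place where transcripts start, end or are spliced in more than one way, and the level of a gene is the larger of its summed start and summed end events.

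Insulin and the IGFs bind tyrosine kinase receptors at the cell surface, INSR and IGF1R, which phosphorylate the IRS proteins and thereby switch on the PI3K and AKT kinases. IGF2R has no kinase and carries IGF2 to lysosomes. Binding proteins hold IGFs in the fluid outside cells. The liver is the main source of circulating IGF, and in adult liver INSR is normally far more abundant than IGF1R, whereas liver tumours often express fetal features of the axis, such as IGF2 and the short form of INSR.

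NCOA5 itself, the target, was at 25.4 FPKM in the knockout-labelled library and 20.03 FPKM in wild type, so its total RNA does not bear out the label, and the library keeps the name knockout-labelled for that reason. Of its NCOA5 level, 11.9 FPKM carried an internal coding exon in full, beside forms that skip or shorten that exon, which wild type did not list. Sequencing depth is unknown, there is no replicate of either genotype, and each difference below compares these 2 libraries. A gene counts as measured where the larger FPKM is at least 1, and as higher or lower at 2-fold or more in log2 of FPKM + 1, a rule of size without a test. Of 17 hepatocyte and hepatoma markers 12 were measured, with a summed level of 3172 FPKM in the knockout-labelled library and 3021 FPKM in wild type, nearly all of it the keratins KRT8 and KRT18. ALB was at 2.92 FPKM in the knockout-labelled library and 1.41 FPKM in wild type, AFP was at 6.48 FPKM in the knockout-labelled library and 8.80 FPKM in wild type, APOA1, APOB, TTR and SERPINA1 were below 1 FPKM in both, and GPC3 was listed at 0 in both. Markers of other cell types were few: LUM and DCN were the 2 of 7 fibroblast markers measured, summing to 28.7 FPKM in the knockout-labelled library and 14.6 FPKM in wild type, while COL1A1 was at 0.0156 FPKM in the knockout-labelled library and 0.0698 FPKM in wild type. Of 4 endothelial markers only PECAM1 was measured, at 1.20 FPKM in the knockout-labelled library and 1.28 FPKM in wild type. Of 5 leukocyte markers 2 were measured, summing to 3.95 FPKM in the knockout-labelled library and 4.54 FPKM in wild type, and CD3E and CD68 were listed at 0 in both. Their part in the results was not tested, and in bulk RNA fewer cells of a type and less RNA per cell cannot be told apart.

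The sequence difference that separates the INSR forms is shown first because the exon choice differed between the libraries. INSR (ENSG00000171105.13) spans chr19:7112255-7294034 on the minus strand of hg38, and its alternative exon, exon 11 of 22 in GENCODE 29, is the 36 bases of chr19:7150497-7150532. It encodes 12 codons near the end of the extracellular alpha subunit. The receptor without them, known as isoform A, binds IGF2 with higher affinity than the receptor with them, known as isoform B, which is the main form in adult hepatocytes. The transcript sequence, from GENCODE, is given with the last 30 bases of exon 10 and the first 30 bases of exon 12, exon 11 in capitals.
INSR with exon 11: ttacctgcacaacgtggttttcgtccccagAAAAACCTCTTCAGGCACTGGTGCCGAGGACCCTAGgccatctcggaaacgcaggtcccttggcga
INSR without exon 11: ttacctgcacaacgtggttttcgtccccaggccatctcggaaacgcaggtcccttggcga

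INSR was listed at 3.95 FPKM in total in the knockout-labelled library and 3.75 FPKM in wild type, a log2 ratio of 0.06. All of it in the knockout-labelled library left exon 11 out, while in wild type 2.70 FPKM left it out and 1.05 FPKM included it. Exon inclusion was therefore 0% in the knockout-labelled library and 28.1% in wild type, a difference of -28.1 percentage points at an almost equal total. The form without exon 11 stood at 3.95 FPKM in the knockout-labelled library against 2.70 FPKM in wild type, a ratio of 1.46. One start, upstream of the first junction, and one end were above 0 in each library, and each carried the whole level. The other 3 annotated ends were listed at 0 in both.

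A shift of this size was not rare among exons in these tables. Of 16973 skipped-exon pairs with at least 1 FPKM in each library, 4.14% had inclusion lower by 20 points or more in the knockout-labelled library, and 8.69% moved by 20 points or more in either direction. Of the pairs with 2 FPKM or more in each library and a mean below 8, the range in which INSR lies, 5.92% were lower by that much. Among 953 pairs of that range that had both forms in wild type, 13.4% had no inclusion in the knockout-labelled library. Conversely, among 942 pairs of that range with both forms in the knockout-labelled library, 16.6% had no inclusion in wild type. The 0% of INSR rests on a gene of about 4 FPKM whose read count is unknown, and an exact 0 can be a failed estimate.

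**Figure D1:**
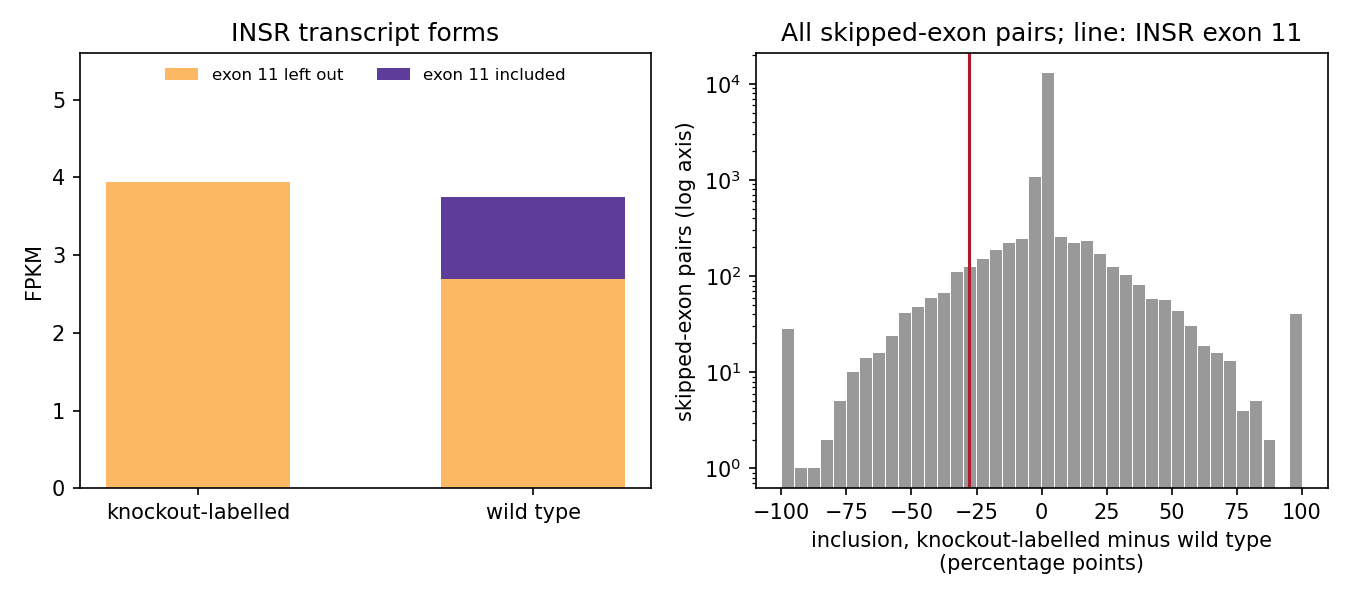
Left, FPKM of the INSR forms without and with exon 11 in the knockout-labelled and wild-type libraries, stacked. Right, the difference in inclusion for all 16973 skipped-exon pairs in bins of 5 percentage points on a log axis of counts, with a line at the INSR value of -28.1 points. The included form appears in wild type only, and the line lies among many other pairs.

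Factors known to act on INSR exon 11 were examined side by side. SRSF3, which binds exon 11 and favours its inclusion, was at 173 FPKM in the knockout-labelled library and 71.4 FPKM in wild type. SRSF1, which also favours inclusion, was at 131 FPKM in the knockout-labelled library and 163 FPKM in wild type. SRSF3 had a log2 ratio of 1.27 and passed the 2-fold rule, but from end events alone its ratio was 0.58. CELF1, which favours skipping, was at 22.6 FPKM in the knockout-labelled library and 36.7 FPKM in wild type, a log2 ratio of -0.67. From start events alone CELF1 had 0 FPKM in the knockout-labelled library and 28.8 FPKM in wild type, and was lower by the rule. MBNL1, which favours inclusion, had a log2 ratio of -0.16, and its relative MBNL2 had -0.48. HNRNPA1, which favours skipping, had 0.16. Of 10 measured factors of the list 1 was higher and 0 were lower, against 2.87% higher and 3.79% lower over all measured genes. Among genes above 0 in both libraries, as these 10 are, the shares were 1.2% and 2.02%. The median log2 ratio of the factors was -0.12, against 0.0091 over all measured genes. The factors do not share one direction, and their part in the INSR difference was not tested.

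IGF1R, the receptor for both IGFs (ENSG00000140443.14, chr15:98648539-98964530, plus strand), was at 7.14 FPKM in the knockout-labelled library and 9.37 FPKM in wild type. The log2 ratio of -0.35 was within 2-fold, and start and end sums were equal in each library. On the same scale per length, IGF1R stood above INSR in both libraries, at 1.81 times its level in the knockout-labelled library and 2.499 times in wild type. These totals include starts other than that of the full-length receptor. By the first exon of the full-length receptor alone the excess was smaller. INSR was at 3.95 FPKM in the knockout-labelled library and 3.75 FPKM in wild type. The first exon of the full-length receptor was at 5.30 FPKM in the knockout-labelled library and 5.83 FPKM in wild type, a difference of -0.53 FPKM and a log2 ratio of -0.12. Most of the difference in total thus lay in other starts, at 1.83 FPKM in the knockout-labelled library and 3.53 FPKM in wild type.

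The other starts were not the same ones. In wild type the second start was an exon of 42 bases at chr15:98734712-98734753, in the intron after exon 2 of 21, annotated as the start of a noncoding transcript. It gave 37.7% of the gene in wild type and was listed at 0 in the knockout-labelled library. In the knockout-labelled library the second start was an exon at chr15:98899875-98900052, in the intron after exon 5, which gave 25.7% of the gene there and is at no GENCODE 29 exon boundary. Wild type did not list it. The annotated start exon is printed because it was above 0 in one library only.
IGF1R first exon of 42 bases: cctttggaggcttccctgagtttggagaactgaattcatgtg

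Other forms of IGF1R did not differ. An exon of 230 bases at chr15:98934824-98935053 was included in full in both libraries. The inner splice site of exon 9, which drops the first bases of that exon, was listed at 0 in both.

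IGF2R, the clearance receptor (ENSG00000197081.13, chr6:159969099-160113507, plus strand), was at 48.6 FPKM in the knockout-labelled library and 44.03 FPKM in wild type. Its log2 ratio was 0.14, and its start lay at the same annotated exon in both. The events listed for IGF2R left this total less settled than those of the other receptors. Wild type also listed a start at chr6:160091329-160091568, in the intron between exons 44 and 45, at 45.9 FPKM. This exon is at no annotated IGF2R boundary in a locus that names another gene as well, so it was not assigned. Counting it gave 48.6 FPKM in the knockout-labelled library and 89.9 FPKM in wild type, a log2 ratio of -0.87. The only end event listed, the last exon of a short noncoding transcript, was at 21.6 FPKM in the knockout-labelled library and 37.6 FPKM in wild type, a log2 ratio of -0.77. The direction for IGF2R therefore depends on which events are counted.

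Exon 45 of IGF2R, of 48 exons, had a listed pair of forms in the knockout-labelled library alone. The full exon of 187 bases was at 35.9 FPKM and a form that lacks its first 38 bases was at 12.7 FPKM, or 26.2% of the gene. The inner splice site is not annotated in GENCODE 29, and 38 is no multiple of 3. Wild type listed no such pair, so a share cannot be given there. The reference exon is printed with the 38 bases in capitals, which end in the AG that precedes the shortened form.
IGF2R exon 45: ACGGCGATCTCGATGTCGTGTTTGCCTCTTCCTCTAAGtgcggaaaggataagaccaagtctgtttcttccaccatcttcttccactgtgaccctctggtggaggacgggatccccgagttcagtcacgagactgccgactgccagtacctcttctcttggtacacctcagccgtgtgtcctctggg

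The ligand and the substrates were at or near 0 in the tables. IGF2, the fetal growth factor that hepatocellular carcinomas often overexpress (ENSG00000167244.19, chr11:2129112-2158658, minus strand), had 0 FPKM in the knockout-labelled library and 0.0179 FPKM in wild type, from 1 start event of 7 events assigned to it. IRS1 (ENSG00000169047.5, chr2:226731317-226799759) and IRS2 (ENSG00000185950.8, chr13:109752698-109786568), the main docking proteins of both receptors, were listed at 0 in every event of both libraries. Of 17608 protein-coding genes named, 25.04% were listed at 0 in both. A 0 here is a listing and not shown to be an absence. The end events of GRB10 summed to 0 in both libraries while its start events did not. The start events of CELF1 summed to 0 in the knockout-labelled library beside end events at 22.6 FPKM. A sum of 0 can also mean that no event of that type was listed. No fold is given for these 3 genes.

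Among the binding proteins, IGFBP2 differed between the libraries. IGFBP2 (ENSG00000115457.9, chr2:216632828-216664436, plus strand), a secreted protein of fetal liver and of many tumours, was at 4.13 FPKM in the knockout-labelled library and 0.726 FPKM in wild type. The ratio was 5.68 without a pseudocount and the log2 ratio with the pseudocount 1.57. The wild-type level was below the minimum of 1 FPKM. IGFBP2 thus counted as measured only through the knockout-labelled library, where it was higher. It was 1 of 7 measured members past 2-fold upward, and 0 of 7 were past it downward. Across all 11016 measured genes 6.66% passed the rule, 2.87% as higher and 3.79% as lower, with 1.2% higher and 2.02% lower among the 10624 genes above 0 in both libraries. Its start and end sums differed by less than 5%. At a minimum of 5 FPKM it was not measured, so this is a difference between low levels at unknown depth. IGFBP2 lies on distal chromosome 2, where 193 measured genes beyond 180 Mb, above 0 in both libraries, had a median log2 ratio of -0.19, and IGFBP2 had the highest ratio of these.

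A pair of starts made up the IGFBP2 level in the knockout-labelled library. The upstream start at chr2:216633395-216633965, the first exon of the main coding transcript, was at 2.05 FPKM there and 0.726 FPKM in wild type, a ratio of 2.82 and a log2 ratio of 0.82, which on this scale is short of 2-fold. The downstream start at chr2:216659618-216659746 was at 2.07 FPKM in the knockout-labelled library, 50.3% of the gene, and was listed at 0 in wild type. This exon of 129 bases replaces the first coding exon in an annotated coding transcript, and its reference sequence is printed because the larger share of the difference lay in it.
IGFBP2 downstream first exon: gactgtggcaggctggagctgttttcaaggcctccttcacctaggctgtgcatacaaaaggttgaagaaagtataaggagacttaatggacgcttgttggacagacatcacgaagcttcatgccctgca

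IGFBP3, the main carrier of IGFs in blood (ENSG00000146674.14, chr7:45912245-45921874, minus strand), was at 8.80 FPKM in the knockout-labelled library and 11.8 FPKM in wild type, a log2 ratio of -0.38 that was within 2-fold. Its forms differed more than its total. The conventional first exon of 537 bases in one piece was at 1.73 FPKM in the knockout-labelled library and listed at 0 in wild type. The other forms carried gaps inside that exon. The form with a first exon of 48 bases, and a gap of 63 bases, was at 5.001 FPKM in the knockout-labelled library and 4.66 FPKM in wild type. The form with a first exon of 167 bases was at 2.07 FPKM in the knockout-labelled library and 4.99 FPKM in wild type. It has gaps of 79 and 5 bases on either side of an exon of 3 bases, as annotated in GENCODE 29. The form with a first exon of 141 bases and a gap of 291 bases had 0 FPKM in the knockout-labelled library and 2.13 FPKM in wild type. Whether such small gaps are introns was not tested.

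**Figure D2:**
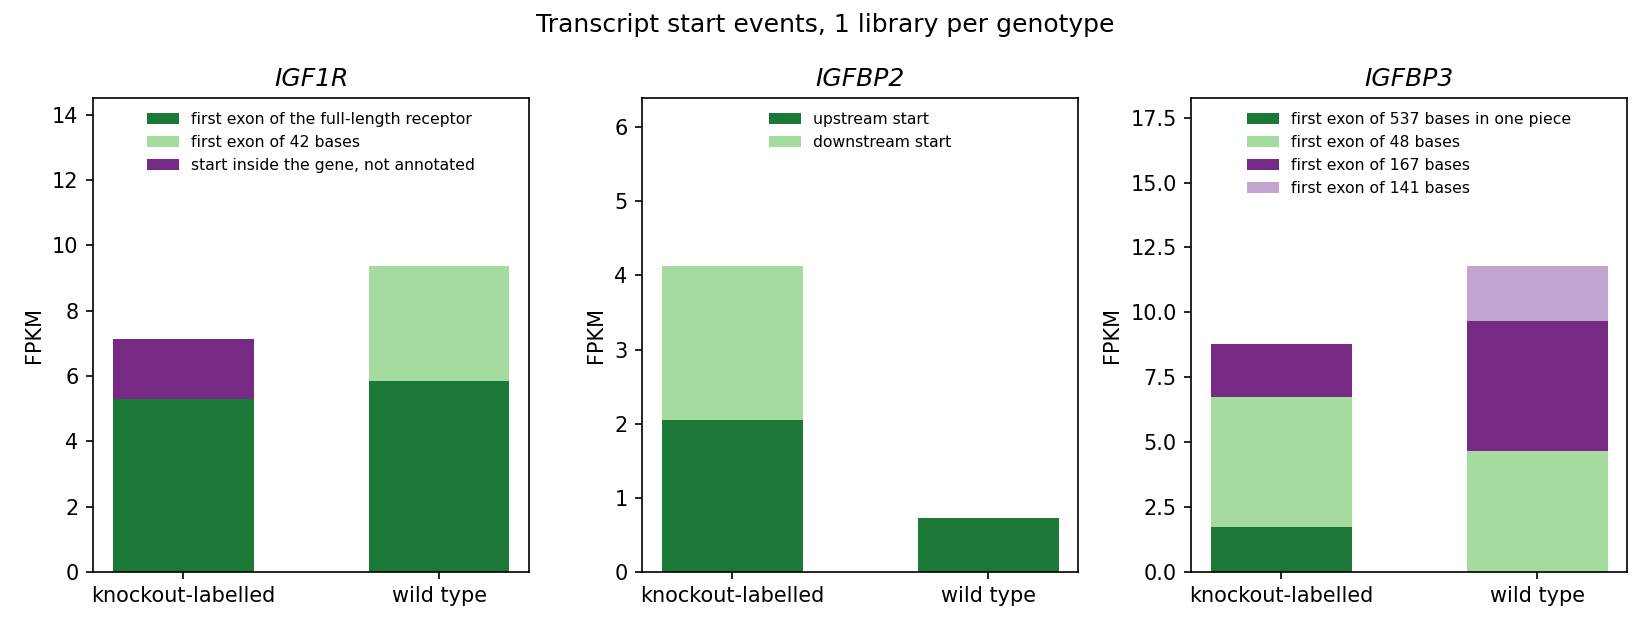
Stacked FPKM of the start events above 0 for IGF1R, IGFBP2 and IGFBP3, knockout-labelled left and wild type right, each axis starting at 0. IGF1R has a different second start in each library, the downstream start of IGFBP2 appears in the knockout-labelled library only, and the 537-base first exon of IGFBP3 appears there only.

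IGFBP1 and IGFBP6 hardly differed. IGFBP1, a hepatocyte protein whose gene is repressed by insulin (ENSG00000146678.9, chr7:45888357-45893668, plus strand), was at 15.5 FPKM in the knockout-labelled library and 14.5 FPKM in wild type, a log2 ratio of 0.10. An internal exon of 129 bases was fully included in both libraries. IGFBP6, which prefers IGF2 as its ligand (ENSG00000167779.8, chr12:53097436-53102345, plus strand), was at 43.7 FPKM in the knockout-labelled library and 45.5 FPKM in wild type, a log2 ratio of -0.06. An exon of 58 bases was left out in both. The summed level of the 4 binding proteins among the members was 72.2 FPKM in the knockout-labelled library and 72.5 FPKM in wild type. Of that sum IGFBP6 gave 60.5% in the knockout-labelled library and 62.8% in wild type. IGFBP2 gave 5.72% of the sum in the knockout-labelled library and 1.00% in wild type. IGFBP4, a binding protein outside the members, was at 105 FPKM in the knockout-labelled library and 102 FPKM in wild type. It thus stood above this sum, and above IGFBP6, in both libraries.

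In order of level by the larger of the start and end sums, the measured genes of the knockout-labelled library were IGF2R, IGFBP6, IGFBP1, IGFBP3, IGF1R, IGFBP2 and INSR. In wild type the order was IGFBP6, IGF2R, IGFBP1, IGFBP3, IGF1R, INSR and IGFBP2. Neighbours changed places, IGF2R with IGFBP6 and INSR with IGFBP2, and with 1 library each their order has no error. The place of IGF2R also rests on the events counted. With every event of its locus it stood above IGFBP6 in both libraries, at 89.9 FPKM in wild type, and from end events alone it stood below IGFBP6 in both, at 21.6 FPKM in the knockout-labelled library. IGF2R and IGFBP6 lay at percentiles 83.4 and 81.3 of the measured genes of the knockout-labelled library and 81.1 and 81.8 of those of wild type. INSR lay near the low end, at percentile 19.01 in the knockout-labelled library and 18.7 in wild type. The median log2 ratio of the 7 measured members was 0.06, with 4 above 0 and 3 below. With IGF2R from end events alone, or from every event of its locus, 3 were above 0 and 4 below, and the median was -0.06. Across all measured genes above 0 in both libraries, 51.6% lay within 0.2 of 0 in log2 ratio, and the 5th and 95th percentiles were -0.68 and 0.58. By the larger of the start and end sums, IGFBP2 was the measured member outside that range, and the alternative IGF2R values of -0.77 and -0.87 lay below it.

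**Figure D3:**
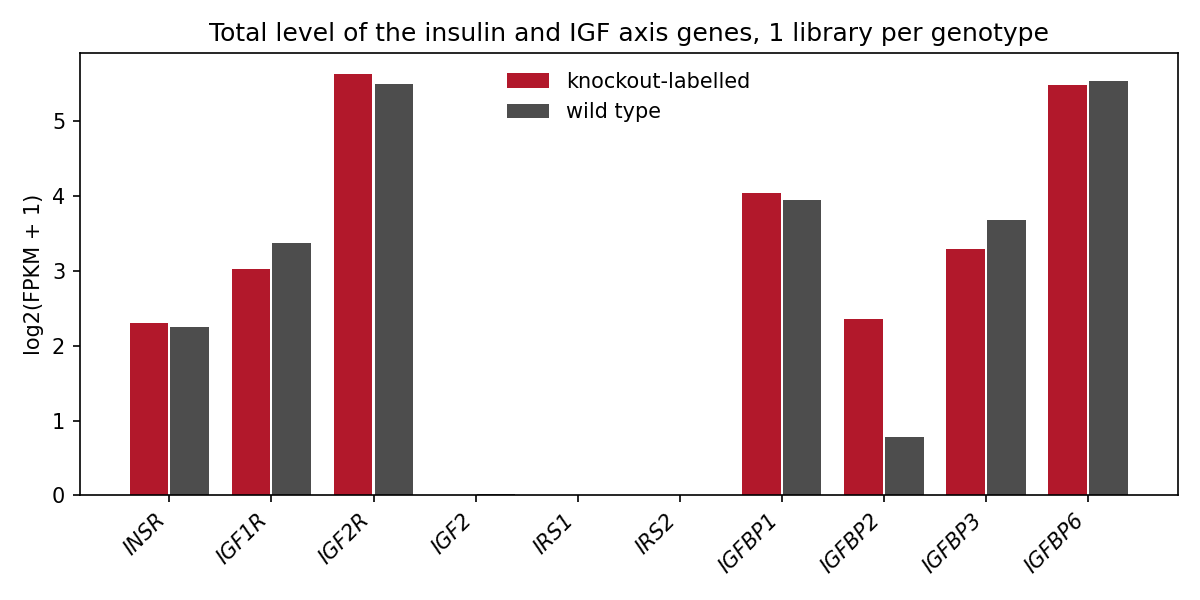
Level of each of the 10 genes as log2(FPKM + 1), knockout-labelled left and wild type right. IGFBP2 stands at 4.13 against 0.726 FPKM, IGF2, IRS1 and IRS2 are at or near 0, and the other 6 genes lie within 2-fold.

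The wider pathway was read from 10 lists of 101 genes, chosen by role, of which 73 were measured. By the 2-fold rule 1 was higher and 2 lower, against the 2.87% and 3.79% of all measured genes. Among genes above 0 in both libraries, as all 73 are, the shares were 1.2% higher and 2.02% lower. Of the 73, 26 had a log2 ratio above 0 and 47 below, with a median of -0.09. Among ligands and relatives 1 of 7 was measured. This was H19, the imprinted noncoding RNA next to IGF2, at 21.9 FPKM in the knockout-labelled library and 60.7 FPKM in wild type, a log2 ratio of -1.43. Its summed end events were lower too, at 3.98 FPKM against 14.5 FPKM in wild type.

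Of 6 measured genes of receptor processing and dampening none passed 2-fold, with ENPP1, a membrane protein that inhibits INSR, at 2.94 FPKM in the knockout-labelled library and 1.30 FPKM in wild type, a log2 ratio of 0.78 that was 1.12, past 2-fold, with a pseudocount of 0.1 FPKM. The phosphatase PTPN1, which dephosphorylates INSR, had 0.46 and the receptor phosphatase PTPRF -0.46. Of 4 other binding proteins and proteases none passed, and the binding protein among them, IGFBP4, had 0.05. STC2, an inhibitor of the proteases that cut binding proteins, had -0.72, the protease HTRA1 -0.44 and MMP7 0.15. Of 11 adaptors none passed and 8 were below 0, with SH2B3 at -0.71, SH2B2, which binds INSR, at -0.59 and GRB10, an inhibitor of both receptors, at -0.37.

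Of 15 measured genes of PI3K and AKT none passed 2-fold, and the median log2 ratio was -0.03. The kinases AKT1 and AKT2 had -0.09 and -0.08. TRIB3, an inhibitor of AKT, had -0.76, TBC1D4, an AKT substrate, 0.61 and PIK3R3, a regulatory subunit of PI3K, 0.52. The direction of TBC1D4 turned from start events alone, at 1.91 FPKM in the knockout-labelled library and 2.29 FPKM in wild type, a log2 ratio of -0.18. On the mTOR branch 1 of 12 was lower, DDIT4, an inhibitor of mTOR complex activity, at 5.25 FPKM in the knockout-labelled library and 21.6 FPKM in wild type. EIF4EBP1, the translation repressor that mTOR phosphorylates, had -0.86 and the kinase RPS6KB2 0.72. From end events alone RPS6KB2 was at 15.9 FPKM in the knockout-labelled library and 14.4 FPKM in wild type, a log2 ratio of 0.14.

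Of 7 measured genes on the list of FOXO factors and genes repressed by insulin, 5 were below 0 and none passed 2-fold. The 7 were FOXO1, FOXO3, FOXO4, CCNG2, PDK4, PCK2 and G6PC3, with a median log2 ratio of -0.55. FOXO1, FOXO3 and FOXO4 are the factors themselves. PCK1 and G6PC, also on the list, were below 1 FPKM in both libraries. PCK2 and G6PC3 are relatives of these, and whether insulin represses them was not tested. The median is therefore not a reading of genes repressed by insulin alone. IGFBP1, the gene repressed by insulin among the 10 members, is not on the list and had 0.10. CCNG2, a FOXO target, was at 5.47 FPKM in the knockout-labelled library and 11.9 FPKM in wild type, a log2 ratio of -0.996, just short of 2-fold. FOXO4 had -0.97 and PCK2, a mitochondrial enzyme of gluconeogenesis, -0.78. With a pseudocount of 0.1 FPKM both CCNG2 (-1.11) and FOXO4 (-1.28) were lower by the rule, and with median ratio scaling CCNG2 was (-1.005). FOXO1 and FOXO3, at 0.03 and -0.11, lay near 0. Of 4 genes induced by insulin through SREBP1 3 were below 0 with a median of -0.28, among them SCD (-0.98), SREBF1 (-0.39) and FASN (-0.17). The 3 IGF2 mRNA binding proteins, oncofetal regulators of RNA stability, were all below 0, IGF2BP3 at 35.3 FPKM in the knockout-labelled library and 47.0 FPKM in wild type (-0.40), IGF2BP1 at -0.32 and IGF2BP2 at -0.31. The set is small and its values lie inside the 5th to 95th percentile of all genes.

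**Figure D4:**
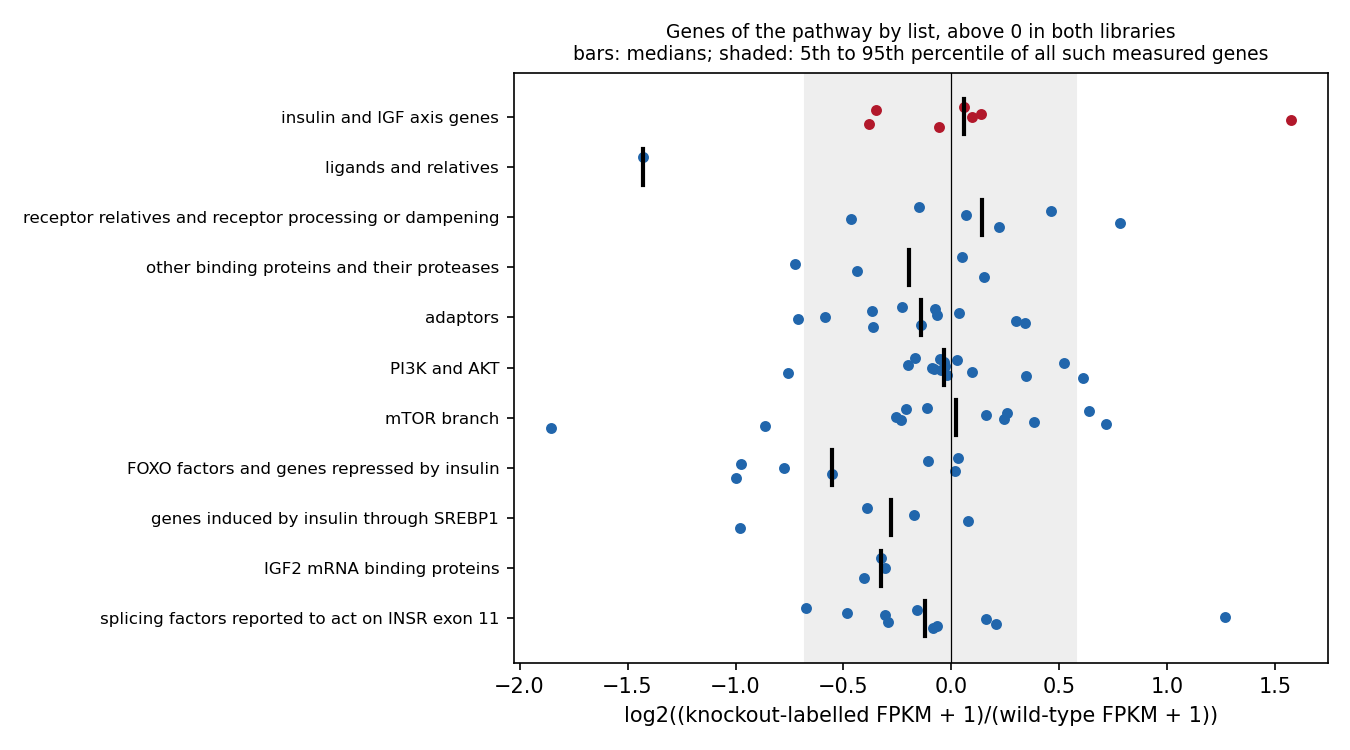
Log2 ratio of knockout-labelled over wild-type FPKM + 1 for the 7 measured members (top row, red) and for each list (blue), genes above 0 in both libraries, with the median as a bar and the 5th to 95th percentile of all such measured genes, -0.68 to 0.58, shaded. IGFBP2 at 1.57, SRSF3 at 1.27, H19 at -1.43 and DDIT4 at -1.86 lie outside the shading by the widest margins.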

How the data were processed

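RNA was measured in 2 LM3 libraries, 1 per genotype, grouped by the genotype label. The protocol in the labels describes poly-A enrichment and paired-end sequencing. The submitters' processing notes name hg38 and Bowtie 0.12.2, without a role. The authors deposited FPKM, per the file headers, for each start, end and splicing event of a locus. Which program called the events, from which annotation and with what use of strand, is not given in the sources used here. Depth is unknown, since the tables hold no counts.

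Events of loci with several genes went to the gene with a GENCODE 29 exon boundary at the junction (shared boundaries to each such gene). Of the events of named loci, 1.68% in the knockout-labelled library and 1.71% in wild type stayed unassigned. All of these lay in loci of several genes, which held 21.4% of all knockout-labelled and 21.5% of all wild-type events. Events of loci without a gene name were not used. Log2 ratios used a pseudocount of 1 FPKM. A pair of exon forms was compared from 1 FPKM in each library. With 1 library per genotype no test, SD or interval was possible. The members and lists were chosen with earlier results of these data known. Named genes were all 10 members, NCOA5 and, per list, the 3 measured genes above 0 in both libraries with the largest log2 ratios in size. AKT1, AKT2, FOXO1, FOXO3, SRSF1, MBNL1, HNRNPA1 and the cell type markers were named beside them after their values were seen. So were IGFBP4, PCK1, PDK4, G6PC and G6PC3. Some genes of the lists are not reported here and were left out of the counts. Alternatives were other pseudocounts, event types, scalings, assignments, minimum levels and thresholds. Python 3.11.15, numpy 2.4.6, pandas 2.3.3 and matplotlib 3.10.9 were used, and the procedure was tested on simulated data.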

Additional observations from a re-analysis of the deposited data

How the results depend on the processing

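Depth is unknown and each genotype has 1 library, so no value has an error. No paired analysis was possible because each genotype has 1 library. Of the 7 measured members, 6 kept their direction and their side of 2-fold under every alternative that gave a value. For these 6 the start and end sums were within 5% of each other. The settings by event type therefore had to return nearly the same ratio and are no check on it. A minimum level can only drop a gene. IGFBP2 ran from 1.56 to 2.35 in log2 ratio and INSR from 0.05 to 0.07. IGF2R changed sign, to -0.77 from end events alone and -0.87 with every event of its locus. At a minimum of 5 FPKM the count of higher members was 0, against 1, because IGFBP2 is then not measured. Higher pathway genes, SRSF3 alone as reported, numbered 0 from end events alone (49 measured), 2 with a pseudocount of 0.1 FPKM (ENPP1 added), 2 with every event of a locus counted (PDPK1 added) and 5 at 1.5-fold, against 1. Lower ones, H19 and DDIT4 as reported, numbered 4 with a pseudocount of 0.1 FPKM (CCNG2 and FOXO4 added), 4 from start events alone (CELF1 and GSK3B added), 3 from end events alone (PHLPP2 added), 3 with median ratio scaling (CCNG2 added) and 12 at 1.5-fold, against 2. Shares of all measured genes past the rule are given for the main settings alone. Whether the counts under the alternatives exceed such a share was not tested. PDPK1, GSK3B and PHLPP2 were picked out with their values already known. INSR exon 11 has 1 listed pair, so summing over pairs changed nothing, and a minimum of 5 FPKM left no value.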
